A study of Mus musculus with 12 samples.

Results

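This account covers 42 mouse genes that encode regulators of DNA methylation, Polycomb repression, histone modification and chromatin remodelling. They were taken by name from a fixed list, and every probe set that the platform annotation pairs with 1 of them alone was used, which gave 109 of the 45101 probe sets on the array. Of these, 103 passed the filter on low values, and all 42 genes kept at least 1 probe set. One more probe set, paired with Kdm6b and with another gene, was left out.

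The study measured RNA from sorted bone marrow cells on 12 Affymetrix Mouse Genome 430 2.0 arrays, with 3 arrays in each of 4 groups. The groups were FoxO-deficient myeloid progenitors, wild-type myeloid progenitors, FoxO-deficient LSK cells and wild-type LSK cells. The FoxO-deficient cells came from mice that were Mx-Cre+ and FoxO1/O3/O4 LoxP/LoxP, and the wild-type cells from mice that were Mx-Cre- with the same LoxP alleles. All groups therefore carried the floxed FoxO1, FoxO3 and FoxO4 alleles, and any effect of the Mx-Cre transgene itself cannot be told apart from the FoxO effect. Mx-Cre is driven by the interferon-inducible Mx1 promoter, and LSK is the usual name for lineage-negative, Sca-1-positive, Kit-positive marrow cells, a population that holds the haematopoietic stem cells. Cells were sorted from pooled mice, and the RNA was amplified and labelled 3 times for each group. Whether the 3 arrays hold separate pools or 1 pool is not given, and the p-values then describe the spread between arrays, which may be technical. Age was not given in the sources used here.

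DNA methyltransferases place methyl groups on cytosine, and the Tet enzymes oxidise them as a step of their removal. Polycomb repressive complex 2 (PRC2) methylates lysine on histone H3, while Polycomb repressive complex 1 (PRC1) ubiquitinates histone H2A. Histone demethylases, deacetylases, acetyltransferases and ATP-dependent remodellers set the marks and positions of nucleosomes. In blood, several of these genes are known for their part in stem cell self-renewal, and Tet2, Dnmt3a, Ezh2 and Asxl1 are recurrently mutated in human myeloid disease.

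Values are given as normalized intensity, the antilog of the quantile-normalized log2 value, which has an arbitrary unit. Differences are log2 changes of limma with their standard error, from 3 arrays a group, and a gene was called where its Benjamini-Hochberg adjusted p over all 13732 genes was below 0.05. Levels of different probe sets do not rank transcripts, since probes differ in affinity. A probe set was counted as above background where it exceeded every bacterial control probe set of its array, a limit that lay between 5.14 and 13.0. By this limit 36 of the 42 genes were above background on all 12 arrays, and Tet3, Cbx2, Cbx7, Cbx8, Hdac5 and Hdac7 were not.

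Wild-type LSK array 2 stood apart before any comparison was made. Its 3' over 5' intensity ratio was 344 for Gapdh and 145 for Actb, while the other 11 arrays had ratios of 1.77 to 2.37 and of 2.74 to 3.36. Its correlations with wild-type LSK arrays 1 and 3 were 0.846 and 0.852, and all other pairs within groups had correlations of 0.929 to 0.947. For 35 of the 42 genes, array 2 lay outside the range of the other 11 arrays, 21 below it and 14 above it. Among all genes the shares were 22.3% below and 29.1% above. Hdac7, Pcgf5, Hdac4, Tet1, Tet3 and Tet2 were at least 2.62 below the mean of arrays 1 and 3 on the log2 scale, and Phc1 was 2.12 and Smarca4 1.60 above it. Probe sets of 1 gene could move in opposite directions on this array. The 3 kept probe sets of Pcgf5 read 37.5, 245 and 362 on array 2, against means over arrays 1 and 3 that were 356, 166 and 103. Each comparison is therefore given with all 12 arrays and again without this array, with the normalization, the filter and the fit repeated. All 42 genes kept the same probe set in both.

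**Figure D1:**
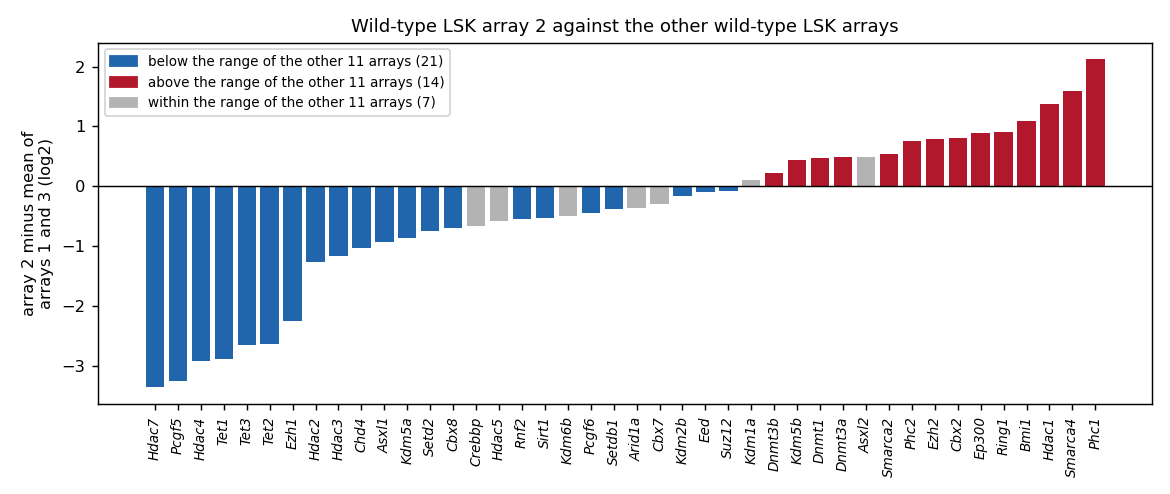
Difference between wild-type LSK array 2 and the mean of wild-type LSK arrays 1 and 3 (log2, y axis) for each of the 42 genes (x axis), coloured by whether array 2 lay below, above or within the range of the other 11 arrays. The bars run from -3.35 for Hdac7 to 2.12 for Phc1, and 35 of 42 genes lie outside that range.

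The labels were checked against the targeted genes and against markers. Foxo4 averaged 59.9 in FoxO-deficient and 330 in wild-type myeloid progenitors (log2 -2.46 ± 0.191, adjusted p = 1.14e-04), and 85.8 in FoxO-deficient and 393 in wild-type LSK cells (log2 -2.20 ± 0.191, adjusted p = 0.00162). Foxo1 averaged 12.5 in FoxO-deficient and 23.4 in wild-type myeloid progenitors, and 27.2 in FoxO-deficient and 104 in wild-type LSK cells, and was not called. Foxo3 averaged 2414 in FoxO-deficient and 1860 in wild-type myeloid progenitors (log2 0.38, adjusted p = 0.299), with every FoxO-deficient array above every wild-type one. In LSK cells it averaged 2828 on FoxO-deficient and 2421 on wild-type arrays (log2 0.22, adjusted p = 0.561). A targeted gene thus gave higher readings in the FoxO-deficient groups, without passing the test. The parts of Foxo1 and Foxo3 that the probes cover were not checked against the deleted exons. A list of 11 measured myeloid progenitor markers summed to 18800 to 19484 on FoxO-deficient and 16034 to 16390 on wild-type myeloid progenitor arrays. On LSK arrays it summed to between 3413 and 5675. The 10 measured LSK and stem cell markers summed to 1759 to 1926 on FoxO-deficient and 1545 to 1685 on wild-type myeloid progenitor arrays. On LSK arrays they summed to between 6544 and 7305. Both sums were thus higher on every FoxO-deficient than on every wild-type myeloid progenitor array, and overlapped by genotype on LSK arrays. In these bulk samples, fewer cells of a type and less RNA per cell cannot be told apart.

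Few of the 42 genes were called between FoxO-deficient and wild-type cells with all arrays. In myeloid progenitors, Kdm6b, a demethylase of the Polycomb mark on lysine 27 of histone H3, fell, and the other 41 genes were not called. Among all genes 1.84% were called, 0.757% as higher and 1.09% as lower. Without wild-type LSK array 2, which enters this comparison through the shared normalization and variance, 6 of the 42 were called (3 higher and 3 lower), or 14.3%, against 8.88% of all genes (5.36% higher and 3.53% lower). These 6 were Kdm6b, Tet3 and Kdm5a, which were lower, and Pcgf5, Tet2 and Tet1, which were higher. In LSK cells none of the 42 was called by limma, against 0.269% of all genes (0.124% higher and 0.146% lower). An unadjusted limma p under 0.05 was reached there by 4 of the 42, and by 1573 of all 13732 genes. Without array 2 only Pcgf5 was called there, higher in FoxO-deficient cells, against 0.989% of all genes (0.558% higher and 0.431% lower). The median log2 change of the 42 genes was -0.04 in myeloid progenitors and 0.11 in LSK cells, and that of all genes was 0.04 and -0.04.

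**Figure D2:**
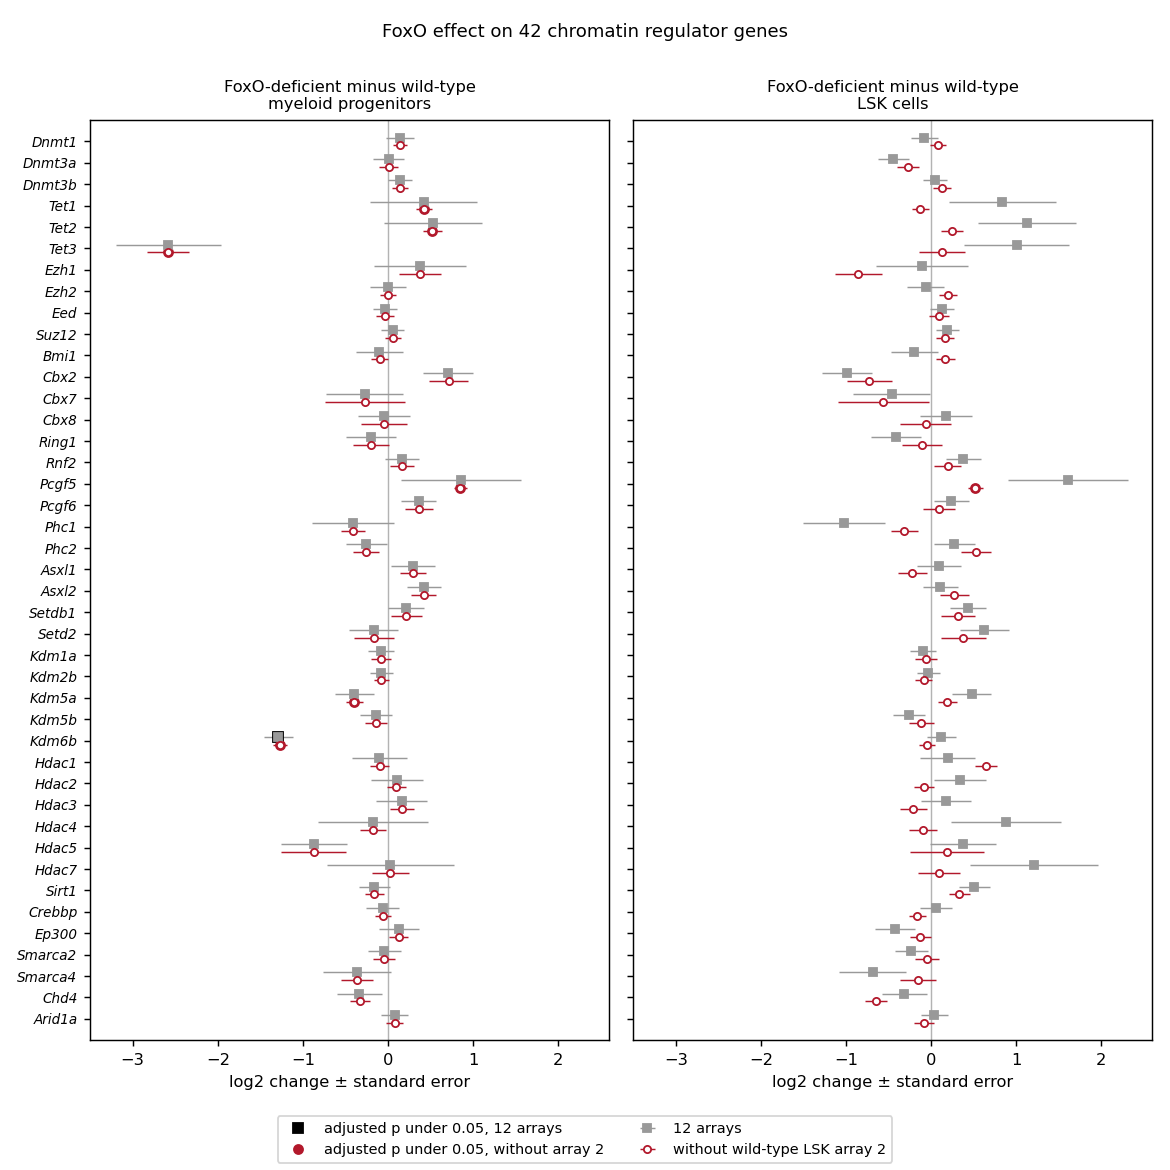
Log2 change between FoxO-deficient and wild-type cells (x axis, with standard error bars) for each of the 42 genes (rows), in myeloid progenitors (left) and LSK cells (right), with all 12 arrays (squares) and without wild-type LSK array 2 (circles), filled where the adjusted p was below 0.05. Kdm6b and Tet3 lie farthest to the left among myeloid progenitors, and leaving out array 2 narrows the error bars in both panels.

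Complete separation of the arrays was more common than calls. In myeloid progenitors 7 genes were higher on every FoxO-deficient array than on any wild-type array, where 18.2% of all genes were, and 6 were lower on every array, where 12.6% of all genes were. In LSK cells the counts were 7 higher and 5 lower, against 7.77% and 9.06% of all genes. Leaving out array 2 made them 13 and 9, against 16.1% and 17.6% of all genes, with 1 fewer wild-type array to separate from.

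Kdm6b read 1587, 1560 and 1429 in FoxO-deficient myeloid progenitors and 3926, 3797 and 3458 in wild-type myeloid progenitors. The groups did not overlap, and the readings within each group lay close together. The log2 change was -1.29 ± 0.167, a fold of 0.410 (adjusted p = 0.0039), and it was -1.27 with adjusted p = 7.55e-05 without wild-type LSK array 2. In LSK cells Kdm6b read 5020, 5005 and 5248 on FoxO-deficient arrays and 5160, 3720 and 5355 on wild-type arrays. These groups overlapped, and the log2 change was 0.12 ± 0.167 (adjusted p = 0.772). The FoxO effect in myeloid progenitors minus that in LSK cells was -1.41 ± 0.236 (adjusted p = 0.0252). It was the only one of the 42 called in this comparison, against 0.859% of all genes (0.291% higher and 0.568% lower). Without array 2, Kdm6b and Tet3 were called, both lower, against 3.51% of all genes (1.77% higher and 1.74% lower). The Kdm6b difference missed the threshold when any single array from 4 to 12 was left out, with adjusted p between 0.0604 and 0.0886, and reached adjusted p = 0.0018 without array 2.

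The probe set behind these Kdm6b values carries the suffix x_at, which Affymetrix gives to probe sets that may match other transcripts as well. A second Kdm6b probe set read 5.72, 13.0 and 13.2 in FoxO-deficient myeloid progenitors and 48.5, 69.5 and 64.0 in wild-type myeloid progenitors. Of the FoxO-deficient readings, 1 of 3 was not above the background limit of its array. Tested among all kept probe sets, this probe set was lower (adjusted p = 0.0081), and its fitted log2 change of -2.59 rests in part on that reading near background. In LSK cells the same probe set read 240, 211 and 175 on FoxO-deficient arrays and 208, 108 and 190 on wild-type arrays, which overlapped. The third probe set lay near background and was not called. With the mean of the 3 probe sets in place of the brightest, the Kdm6b change in myeloid progenitors was -1.47 with adjusted p = 0.0909. The difference of the FoxO effects then had adjusted p = 0.367.

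Immediate-early genes, a list of transcription factors and feedback regulators induced within minutes of stimulation, moved with Kdm6b. Of 15 such genes, 14 fell in FoxO-deficient myeloid progenitors, and their summed intensity was 1011 to 1103 on FoxO-deficient arrays and 14308 to 15111 on wild-type arrays. In LSK cells none of the 15 was called, with sums of 24793 to 25869 on FoxO-deficient arrays and 20630 to 23801 on wild-type arrays. Fosb, Egr3, Atf3 and Nr4a1 were not above the background limit on any FoxO-deficient myeloid progenitor array. The part of this pattern in the Kdm6b result was not tested.

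Kdm5a, a demethylase of lysine 4 of histone H3, read 184, 181 and 192 in FoxO-deficient and 270, 216 and 249 in wild-type myeloid progenitors. The groups did not overlap, and the log2 change was -0.39 ± 0.229 (adjusted p = 0.546), or -0.39 ± 0.1 with adjusted p = 0.0463 without array 2. In LSK cells Kdm5a read 307, 325 and 296 on FoxO-deficient arrays and 278, 149 and 266 on wild-type arrays. The order of the groups was thus turned round in LSK cells, where FoxO-deficient cells were higher on every array (log2 0.48 ± 0.229, adjusted p = 0.47). The difference of these effects was -0.87 with adjusted p = 0.359, and -0.58 with adjusted p = 0.0795 without array 2. Of the 5 other Kdm5a probe sets, none was called in either comparison of FoxO-deficient with wild-type cells.

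Tet3, a methylcytosine dioxygenase, read 3.11, 2.56 and 2.68 in FoxO-deficient myeloid progenitors and 15.8, 24.0 and 12.1 in wild-type myeloid progenitors. No FoxO-deficient array was above the background limit, and the wild-type arrays were above it on 2 of 3. By group means, with that limit in place of the FoxO-deficient readings, Tet3 was at least 1.79-fold lower in FoxO-deficient myeloid progenitors. The wild-type mean includes the array that was not above its limit. The adjusted p was 0.0755 with all arrays and 6.53e-04 without array 2, on fitted log2 changes of -2.58 in both. In LSK cells Tet3 read 11.3, 12.7 and 16.3 on FoxO-deficient arrays and 11.9, 1.95 and 12.5 on wild-type arrays, where array 2 gave the low value. Without array 2 the FoxO effects on Tet3 differed between the cell types by -2.71 on the fitted log2 scale (adjusted p = 0.0075), and with it by -3.59 (adjusted p = 0.123). Tet3 had a single probe set, and all its readings were close to background.

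Tet2, the Tet enzyme most often mutated in human myeloid disease, read 486, 487 and 523 in FoxO-deficient and 342, 355 and 340 in wild-type myeloid progenitors. The groups did not overlap (log2 0.53 ± 0.577, adjusted p = 0.834), and the gene was called without array 2 (log2 0.52 ± 0.113, adjusted p = 0.0262). A second Tet2 probe set averaged 212 in FoxO-deficient and 210 in wild-type myeloid progenitors and was not called. Tet1, the founding member of the enzyme family, read 119, 120 and 103 in FoxO-deficient and 82.4, 90.6 and 82.7 in wild-type myeloid progenitors. It too was called without array 2 alone (log2 0.42 ± 0.0907, adjusted p = 0.0261, against 0.897 with all arrays). Tet1 was thus called in 1 of 22 alternatives, and not with the mean of its 4 kept probe sets. In LSK cells neither gene was called. Tet2 read 433, 443 and 473 on FoxO-deficient arrays and 328, 61.5 and 437 on wild-type arrays, and Tet1 read 172, 184 and 176 on FoxO-deficient arrays and 191, 26.1 and 195 on wild-type arrays. The low reading of each was again array 2.

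Pcgf5, a Polycomb group ring finger protein of a variant PRC1, read 457, 464 and 468 in FoxO-deficient and 268, 245 and 255 in wild-type myeloid progenitors. In LSK cells it read 507, 488 and 541 on FoxO-deficient arrays and 366, 37.5 and 345 on wild-type arrays. FoxO-deficient arrays were higher than every wild-type array in both cell types. With all arrays the gene was not called (adjusted p = 0.735 in myeloid progenitors and 0.428 in LSK cells). Without array 2 the log2 change was 0.85 ± 0.0801 in myeloid progenitors (adjusted p = 6.53e-04) and 0.52 in LSK cells (adjusted p = 0.0422). Its other probe sets did not show the difference. The first averaged 136 in FoxO-deficient and 126 in wild-type myeloid progenitors, and the second 34.5 in FoxO-deficient and 46.9 in wild-type myeloid progenitors, and neither was called in either FoxO comparison.

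Marker lists of other cell types also separated by genotype, in both directions. In myeloid progenitors Pcgf5, Tet1 and Tet2 separated too, and in LSK cells Pcgf5 alone of these genes, with all arrays. In myeloid progenitors the 8 late neutrophil markers summed to 6474 to 6759 on FoxO-deficient and 4559 to 4697 on wild-type arrays, and 1 of them was called higher (4 without array 2). The 8 eosinophil, basophil and mast cell markers summed there to 1054 to 1074 on FoxO-deficient and 645 to 755 on wild-type arrays, with none called by limma (2 higher without array 2). The 4 measured B cell markers summed to 221 to 240 on FoxO-deficient and 102 to 134 on wild-type arrays, and 1 was called higher (2 without array 2). Cd79a and Jchain were not above background on any wild-type myeloid progenitor array. The 4 measured T and NK cell markers summed to 2285 to 2619 on FoxO-deficient and 1681 to 1759 on wild-type arrays. Cd4 was not above background on any myeloid progenitor array, nor Cd3e on any FoxO-deficient or Cd8a on any wild-type one. In each genotype 2 of these 4 markers were thus above background on at least 1 array. Other lists went the other way. The 4 measured erythroid markers summed to 6119 to 6478 on FoxO-deficient and 7260 to 7746 on wild-type arrays. The 3 measured monocyte and macrophage markers summed to 269 to 293 on FoxO-deficient and 372 to 394 on wild-type arrays.

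In LSK cells the eosinophil, basophil and mast cell list summed to 317 to 374 on FoxO-deficient and 89.5 to 199 on wild-type arrays, with 2 of the 8 called higher (6 without array 2). Prg3 was not above background on any wild-type LSK array. The late neutrophil list summed to 8565 to 8817 on FoxO-deficient and 5942 to 8134 on wild-type LSK arrays, with 2 of 8 called higher (3 without array 2). The B cell list summed to 1716 to 1790 on FoxO-deficient and 678 to 1090 on wild-type LSK arrays, and the 4 T and NK cell markers to 867 to 1100 on FoxO-deficient and 272 to 702 on wild-type LSK arrays. None of these last 8 genes was called with all arrays, and 1 B cell gene was higher without array 2. The 3 measured monocyte and macrophage markers summed to 79.6 to 82.2 on FoxO-deficient and 105 to 122 on wild-type LSK arrays, with 1 called lower. The 4 measured erythroid markers overlapped, at 3275 to 3381 on FoxO-deficient and 1739 to 3828 on wild-type LSK arrays, with 1 called lower. Rhag was not above background on any FoxO-deficient LSK array, nor Adgre1 on any wild-type array of either cell type. Cd79a and Cd8a were also not above background on any wild-type LSK array. The part of these lists in the Pcgf5 results, and in the Tet1 and Tet2 results in myeloid progenitors, was not tested.

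**Figure D3:**
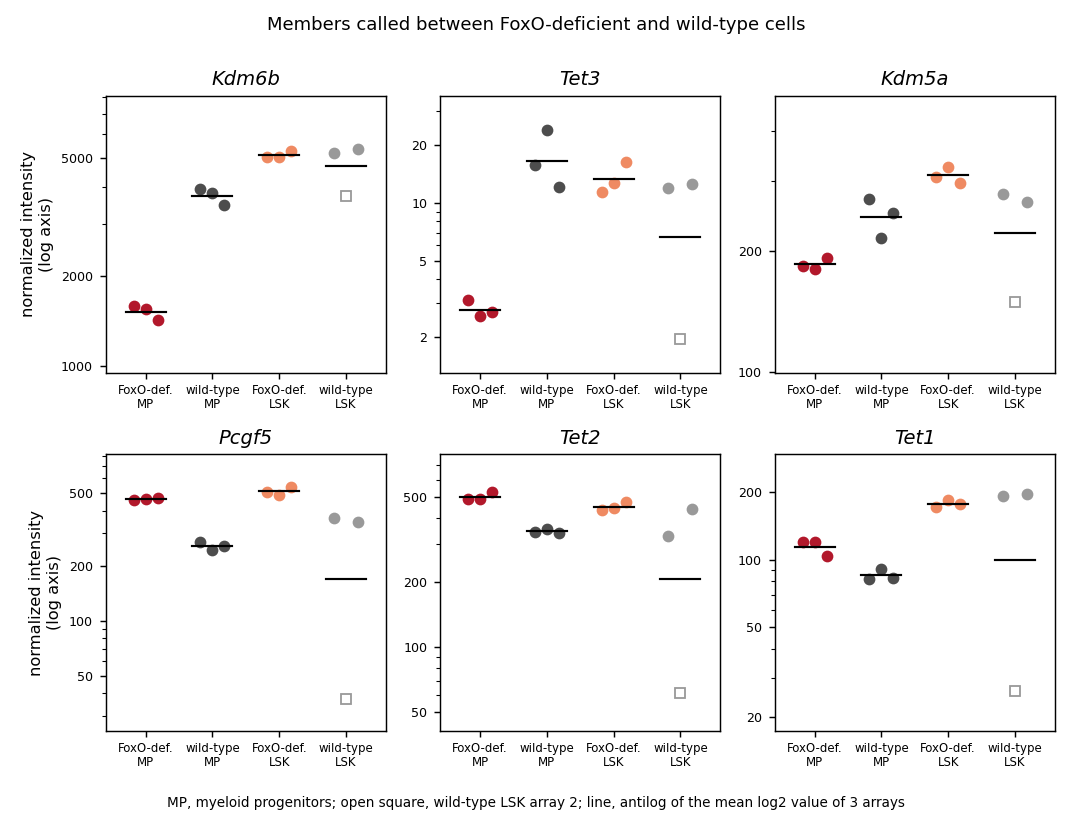
Normalized intensity (log y axis) on each array for the 6 genes called between FoxO-deficient and wild-type cells, by group (x axis); lines are antilogs of the mean log2 value of 3 arrays, and the open square is wild-type LSK array 2. Kdm6b, Tet3 and Kdm5a are lower and Pcgf5, Tet2 and Tet1 higher on all 3 FoxO-deficient than on all wild-type myeloid progenitor arrays.

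FoxO proteins bind forkhead motifs, so the promoters of the 42 genes were searched for the core motif GTAAACA on both strands, in RefSeq windows on GRCm38.p6 that run from 250 bases before to 50 bases after the start site. For 37 of the 42 genes such windows were available, 53 in all, and none for Hdac1, Hdac3, Cbx2, Kdm5a and Kdm6b. Of the 53 windows, 4 (7.55%) held the motif, in Pcgf5, Kdm2b, Eed and Hdac7. Among all 32851 windows the share was 3.65%. The 4 windows are given 5' to 3' along the gene, because they are the ones with a motif match, and capitals mark it (GTAAACA, or TGTTTAC where it lies on the other strand).
Pcgf5 (chr19:36348079-36348378, plus strand): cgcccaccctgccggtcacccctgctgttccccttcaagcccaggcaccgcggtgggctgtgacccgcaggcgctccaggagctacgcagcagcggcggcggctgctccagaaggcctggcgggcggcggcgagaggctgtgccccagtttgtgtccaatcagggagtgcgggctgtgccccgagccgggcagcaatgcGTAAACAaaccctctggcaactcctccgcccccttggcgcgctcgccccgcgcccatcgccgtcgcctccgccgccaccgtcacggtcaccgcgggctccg
Kdm2b (chr5:122989050-122989349, minus strand): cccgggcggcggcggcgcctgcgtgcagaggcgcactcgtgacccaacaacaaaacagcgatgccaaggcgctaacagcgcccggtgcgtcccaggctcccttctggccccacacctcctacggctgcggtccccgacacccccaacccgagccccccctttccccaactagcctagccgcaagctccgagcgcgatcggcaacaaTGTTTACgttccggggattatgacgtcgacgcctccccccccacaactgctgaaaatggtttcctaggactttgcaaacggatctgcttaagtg
Eed (chr7:89980927-89981226, minus strand): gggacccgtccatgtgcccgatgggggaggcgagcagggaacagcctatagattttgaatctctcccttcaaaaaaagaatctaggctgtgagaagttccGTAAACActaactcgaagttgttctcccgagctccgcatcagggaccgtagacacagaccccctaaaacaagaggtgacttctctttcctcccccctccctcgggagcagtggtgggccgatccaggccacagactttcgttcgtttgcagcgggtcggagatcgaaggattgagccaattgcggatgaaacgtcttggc
Hdac7 (chr15:97831718-97832017, minus strand): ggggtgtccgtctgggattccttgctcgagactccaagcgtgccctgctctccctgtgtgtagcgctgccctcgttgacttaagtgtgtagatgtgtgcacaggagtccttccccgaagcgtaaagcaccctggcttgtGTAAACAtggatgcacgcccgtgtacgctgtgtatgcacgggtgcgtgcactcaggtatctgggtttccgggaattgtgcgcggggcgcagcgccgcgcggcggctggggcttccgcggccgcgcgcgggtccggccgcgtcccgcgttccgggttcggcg
In Pcgf5 the match began 51 bases before the start site of the window given, in Kdm2b 44, in Eed 150 and in Hdac7 111. Pcgf5, Kdm2b and Hdac7 also had windows at other start sites, which did not hold GTAAACA on either strand. Pcgf5 was called between FoxO-deficient and wild-type cells without array 2, and the other 3 genes were not. Kdm2b averaged 2242 in FoxO-deficient and 2370 in wild-type myeloid progenitors (log2 -0.08, adjusted p = 0.913), and Eed and Hdac7 overlapped between FoxO-deficient and wild-type cells in both cell types. A match describes the letters only. TGANTCA, the AP-1 motif of Fos and Jun dimers, was found in 2 of the 53 windows, of Hdac7 and Smarca2, against 7.81% of all windows. The cyclic AMP response element TGACGTCA was found in 1, of Cbx8, against 1.79%.

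None of the DNA methyltransferases was called between FoxO-deficient and wild-type cells in either cell type. Without array 2 the log2 changes of Dnmt1, the maintenance enzyme, and of the de novo enzymes Dnmt3a and Dnmt3b lay between 0.01 and 0.14 in myeloid progenitors and between -0.27 and 0.12 in LSK cells. The 4 PRC2 genes (Ezh1 and Ezh2, the catalytic subunits, with Eed and Suz12) lay between -0.04 and 0.37 in myeloid progenitors and between -0.85 and 0.20 in LSK cells, and none was called. Among the 10 PRC1 genes only Pcgf5, a ring finger protein, was called. The others included Bmi1, Ring1, Rnf2 and Pcgf6, which are ring finger subunits as well. The 7 deacetylases ranged from -0.88 for Hdac5 to 0.16 for Hdac3 in myeloid progenitors, with none called. The acetyltransferases Crebbp and Ep300, the remodellers Smarca2, Smarca4, Chd4 and Arid1a, the methyltransferases Setdb1 and Setd2, and Asxl1 and Asxl2, partners of the H2A deubiquitinase, gave no call in either cell type. Across comparisons, probe sets of 1 gene often disagreed in sign. Of 61 further kept probe sets, 40 had the sign of the brightest one in myeloid progenitors and 37 in LSK cells.

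More of the 42 genes were called between cell types than between genotypes. With all arrays, 6 of the 42 were called between wild-type myeloid progenitors and wild-type LSK cells (14.3%, against 21.4% of all genes, with 9.95% higher and 11.5% lower), and 7 between FoxO-deficient myeloid progenitors and FoxO-deficient LSK cells (16.7%, against 19.6% of all genes, with 10.2% higher and 9.39% lower). Without array 2 the counts were 20 (9 higher and 11 lower, against 18.4% and 16.6% of all genes, 34.9% in all) and 14 (6 higher and 8 lower, against 22.3% and 16.1%, 38.4% in all). The share of the 42 genes thus lay below that of all genes in 3 of the 4 counts. Arrays of the cell types did not overlap for 14 higher and 12 lower genes in FoxO-deficient cells, where 30.0% and 22.4% of all genes did so. In wild-type cells the counts were 7 higher and 6 lower, against 18.2% and 17.6% of all genes, and 11 and 14 without array 2, against 29.5% and 26.2%. Smarca2 and Dnmt3b were lower and Setdb1 and Pcgf6 higher in myeloid progenitors of both genotypes, with all arrays and without array 2. Median scaling in place of quantile normalization moved the median of all genes by 0.17 in wild-type and 0.21 in FoxO-deficient cells. It turned the split of all calls from 1367 higher and 1575 lower to 2178 and 1209 in wild-type cells, and from 1406 and 1289 to 2400 and 1064 in FoxO-deficient cells. Among the 42 genes it gave 7 higher and 2 lower calls in wild-type cells, and 6 higher and 3 lower in FoxO-deficient cells. Proliferation genes moved with cell type. Of 17 measured, 6 were higher in wild-type myeloid progenitors than in wild-type LSK cells (14 without array 2) and 4 in FoxO-deficient cells (12 without array 2). Their sums were 15507 to 16302 on myeloid progenitor arrays and 11026 to 12351 on LSK arrays, and their part in the differences below was not tested.

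Among the remodellers, Smarca2, the BRM ATPase of the SWI/SNF complex, showed the clearest difference. It read 182, 202 and 181 in FoxO-deficient myeloid progenitors and 483, 483 and 523 in FoxO-deficient LSK cells, a log2 change of -1.40 ± 0.195 (adjusted p = 8.52e-04). In wild-type cells it read 188, 232 and 167 in myeloid progenitors and 488, 750 and 540 in LSK cells, a log2 change of -1.58 ± 0.195 (adjusted p = 4.14e-04). Every myeloid progenitor array lay below every LSK array. A second Smarca2 probe set read 81.3, 122 and 92.2 in FoxO-deficient myeloid progenitors and 258, 280 and 213 in FoxO-deficient LSK cells, and it was called in both genotypes without array 2. Chd4, the ATPase of the NuRD complex, read 574, 533 and 446 in wild-type myeloid progenitors and 743, 389 and 836 in wild-type LSK cells. Array 2 gave the low LSK value, and Chd4 was called without it (log2 -0.61, adjusted p = 0.007), with the sign turned under median scaling of all arrays (0.08).

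Dnmt3b, a de novo DNA methyltransferase, read 432, 463 and 401 in FoxO-deficient myeloid progenitors and 676, 632 and 632 in FoxO-deficient LSK cells (log2 -0.58 ± 0.142, adjusted p = 0.017). Wild-type myeloid progenitors read 372, 375 and 426, and wild-type LSK cells 611, 691 and 575 (log2 -0.68 ± 0.142, adjusted p = 0.0082). The cell types did not overlap in either genotype. Median scaling ended both calls, with adjusted p = 0.181 in wild-type and 0.409 in FoxO-deficient cells. The FoxO-deficient call was also lost without array 4, 10 or 12, and the wild-type call with the mean of probe sets or only the groups compared. A second Dnmt3b probe set was also lower in FoxO-deficient myeloid progenitors without array 2 (log2 -0.73, adjusted p = 0.0486) and was not called in wild-type cells.

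Tet1 was lower in myeloid progenitors of both genotypes once array 2 was left out. The readings of 119, 120 and 103 in FoxO-deficient myeloid progenitors compare with 172, 184 and 176 in FoxO-deficient LSK cells (log2 -0.64 ± 0.0907, adjusted p = 8.32e-04 without array 2). Those of 82.4, 90.6 and 82.7 in wild-type myeloid progenitors compare with 191, 26.1 and 195 in wild-type LSK cells (log2 -1.18 ± 0.101, adjusted p = 7.87e-05 without array 2). With all arrays Tet1 was not called, and in wild-type cells median scaling of all arrays gave a log2 change of 0.01. Of its 3 other probe sets, 2 were called lower in wild-type myeloid progenitors both with all arrays and without array 2. Tet3 was at least 1.43-fold lower in FoxO-deficient myeloid progenitors than in FoxO-deficient LSK cells (adjusted p = 0.0281, and 1.97e-04 without array 2), from the readings given above. That call was lost without any 1 of arrays 4, 5, 6, 10, 11 or 12 (adjusted p 0.0608 to 0.0885). Tet2 was not called between cell types.

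Setdb1, a methyltransferase of lysine 9 of histone H3, read 80.9, 76.8 and 63.5 in FoxO-deficient myeloid progenitors and 34.8, 33.2 and 43.9 in FoxO-deficient LSK cells (log2 0.99 ± 0.211, adjusted p = 0.0092). Wild-type myeloid progenitors read 53.9, 78.9 and 59.5, and wild-type LSK cells 27.5, 22.9 and 32.3 (log2 1.21 ± 0.211, adjusted p = 0.0031). Both genotypes showed complete separation. With the mean of probe sets both calls were lost (adjusted p = 0.135 in wild-type and 0.775 in FoxO-deficient cells). Neither of the other 2 Setdb1 probe sets was called in either genotype without array 2.

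Pcgf6, a ring finger subunit of another variant PRC1, read 68.5, 87.6 and 88.4 in FoxO-deficient myeloid progenitors and 43.9, 47.3 and 45.3 in FoxO-deficient LSK cells (log2 0.83 ± 0.205, adjusted p = 0.018). In wild-type cells it read 56.8, 68.6 and 64.3 in myeloid progenitors and 51.6, 31.5 and 35.3 in LSK cells (log2 0.71 ± 0.205, adjusted p = 0.0345). Myeloid progenitors were higher on every array. The wild-type call was lost without any 1 of arrays 3 to 9 or 11 (adjusted p 0.0505 to 0.106) and in 4 other alternatives, and the FoxO-deficient call without array 4, 6, 11 or 12 (0.0541 to 0.0667) and with the mean of probe sets. Phc1, a polyhomeotic subunit of canonical PRC1, went the other way. It read 31.2, 41.4 and 38.6 in FoxO-deficient myeloid progenitors and 66.1, 72.9 and 56.8 in FoxO-deficient LSK cells (log2 -0.82, adjusted p = 0.0022 without array 2). In wild-type cells it read 52.1, 49.8 and 45.3 in myeloid progenitors and 85.3, 352 and 76.2 in LSK cells (log2 -0.72, adjusted p = 0.0081 without array 2). With all arrays Phc1 missed the threshold in both genotypes, at adjusted p = 0.28 and 0.0621, although the groups were separate.

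Cbx2, a chromodomain subunit of canonical PRC1, gave opposite orders in the genotypes. It read 18.4, 20.8 and 22.0 in FoxO-deficient myeloid progenitors and 14.0, 11.4 and 16.4 in FoxO-deficient LSK cells, where it was higher on every myeloid progenitor array but not called (log2 0.56 ± 0.293, adjusted p = 0.22). In wild-type cells it read 9.54, 11.6 and 17.7 in myeloid progenitors and 24.7, 39.9 and 20.8 in LSK cells, where it was lower (log2 -1.13 ± 0.293, adjusted p = 0.0222). The difference between these changes equals that of the FoxO effects, 1.69 ± 0.414, with adjusted p = 0.126, or 0.067 without array 2. The wild-type call was lost without array 7 or 8 (adjusted p = 0.0802 and 0.0685). These readings lie close to background, and 1 wild-type myeloid progenitor array was not above it.

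In PRC2, Ezh1, the catalytic subunit known from non-dividing cells, read 41.3, 42.9 and 53.4 in wild-type myeloid progenitors and 90.3, 17.4 and 74.9 in wild-type LSK cells. It was lower in myeloid progenitors without array 2 (log2 -0.85 ± 0.276, adjusted p = 0.0428), and median scaling of all arrays gave 0.02. In FoxO-deficient cells the arrays of Ezh1 overlapped, with 51.1, 67.9 and 58.9 in myeloid progenitors and 37.2, 68.1 and 37.3 in LSK cells. Ezh2, the catalytic subunit known from dividing cells, was higher in myeloid progenitors of both genotypes without array 2, by 0.32 in FoxO-deficient cells (adjusted p = 0.0255) and by 0.52 in wild-type cells (adjusted p = 0.0054) on the log2 scale. Asxl1 read 373, 345 and 351 in FoxO-deficient myeloid progenitors and 200, 213 and 303 in FoxO-deficient LSK cells, and it was called higher without array 2 (log2 0.60, adjusted p = 0.0138). Neither of its 2 other probe sets was called.

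Among deacetylases, Hdac7, a class IIa enzyme, read 48.3, 44.5 and 62.4 in FoxO-deficient myeloid progenitors and 34.4, 21.0 and 28.3 in FoxO-deficient LSK cells (log2 0.91, adjusted p = 0.0112 without array 2). In wild-type cells it read 46.4, 45.7 and 59.7 in myeloid progenitors and 28.7, 2.51 and 23.0 in LSK cells (log2 0.97, adjusted p = 0.015 without array 2). Myeloid progenitors were higher on every array, and array 2 was not above background. Its second probe set was not called in either genotype and had the opposite sign in wild-type cells without array 2 (log2 -0.81). Sirt1, a NAD-dependent deacetylase, read 200, 233 and 216 in wild-type myeloid progenitors and 137, 91.6 and 129 in wild-type LSK cells (log2 0.88 ± 0.184, adjusted p = 0.008, and 0.0947 with only the groups compared). In FoxO-deficient cells it read 173, 193 and 216 in myeloid progenitors and 158, 180 and 162 in LSK cells. These arrays overlapped, with a log2 change of 0.21 without array 2. Hdac2 was higher in myeloid progenitors of both genotypes without array 2, by 0.55 in FoxO-deficient and 0.37 in wild-type cells on the log2 scale.

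**Figure D4:**
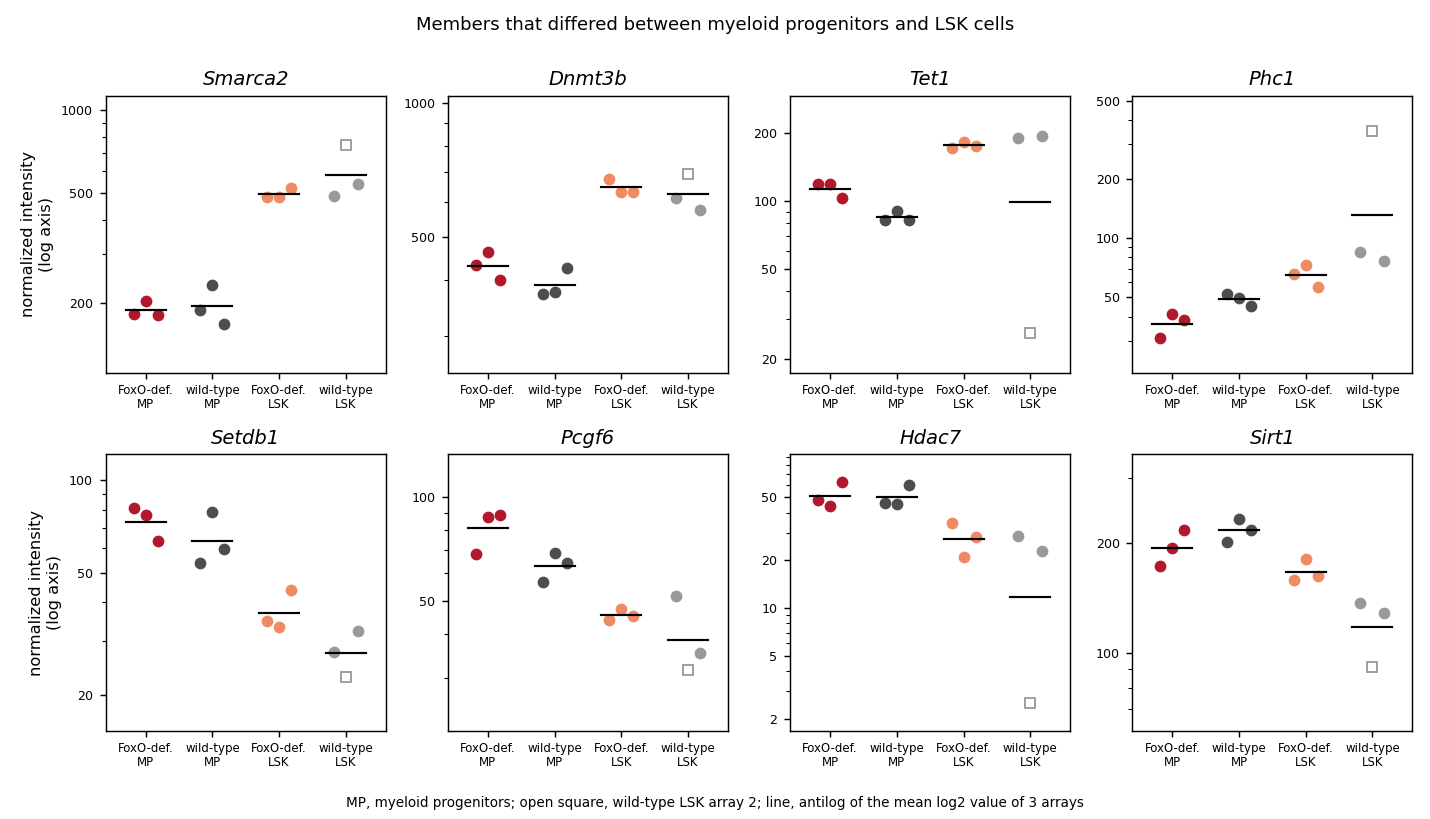
Normalized intensity (log y axis) on each array for 8 genes that differed between myeloid progenitors and LSK cells, by group (x axis); lines are antilogs of the mean log2 value of 3 arrays, and the open square is wild-type LSK array 2. Smarca2, Dnmt3b and Phc1 are lower and Setdb1, Pcgf6 and Hdac7 higher on all myeloid progenitor arrays of a genotype than on its LSK arrays, while the open square departs from its group in Tet1, Phc1 and Hdac7.

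The demethylases Kdm6b and Kdm5a were called between cell types in FoxO-deficient cells. Kdm6b was lower in FoxO-deficient myeloid progenitors than in FoxO-deficient LSK cells by -1.74 ± 0.167 (adjusted p = 8.25e-05). In wild-type cells the change was -0.33 ± 0.167 (adjusted p = 0.194), called only without array 2 (-0.48, adjusted p = 0.005). The test of the difference is the one given above for Kdm6b. Kdm5a was lower in FoxO-deficient myeloid progenitors than in FoxO-deficient LSK cells (log2 -0.74 ± 0.229, adjusted p = 0.0487, and 0.221 under median scaling). This call was lost without any 1 of arrays 4 to 12 (adjusted p 0.063 to 0.129). In wild-type cells Kdm5a was not called (log2 0.13, adjusted p = 0.736).

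Set side by side, the changes between cell types had the same sign in both genotypes for 28 of the 42 genes (66.7%), against 71.8% of all genes. Without array 2 the count was again 28, against 75.1% of all genes. With all arrays 4 genes were called in both genotypes, and 11 without array 2, namely Dnmt3b, Tet1, Ezh2, Pcgf6, Phc1, Setdb1, Kdm6b, Hdac2, Hdac7, Crebbp and Smarca2. All 11 had the same sign in both genotypes. How many of all genes were called in both genotypes, and with which signs, was not counted. These counts therefore have no general rate beside them and are not read as a trait of the 42 genes. These comparisons share no arrays, but they share the normalization and the variance estimate of each gene, so their calls are not independent. Crebbp, an acetyltransferase, was lower in myeloid progenitors by -0.46 in FoxO-deficient and by -0.56 in wild-type cells on the log2 scale without array 2. The remaining calls in wild-type cells without array 2, Suz12, Phc2, Hdac1, Pcgf5 and Arid1a, had log2 changes between -0.47 for Pcgf5 and 0.53 for Phc2.

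**Figure D5:**
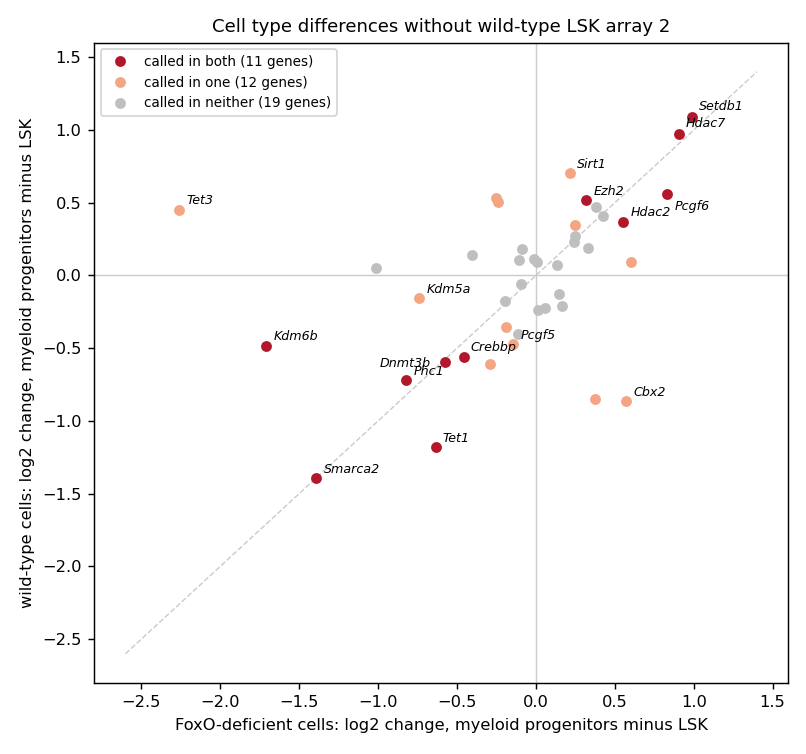
Log2 change between myeloid progenitors and LSK cells in FoxO-deficient (x axis) and wild-type cells (y axis) for the 42 genes, without wild-type LSK array 2, coloured by call; the dashed line marks equal changes. Smarca2 and Setdb1 lie near that line, Kdm6b and Tet3 lie to its left, and Cbx2 lies below it.

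For 18 of the 42 genes no comparison gave a call, with all arrays or without array 2. They were Dnmt1, Dnmt3a, Eed, Bmi1, Cbx7, Cbx8, Ring1, Rnf2, Asxl2, Setd2, Kdm1a, Kdm2b, Kdm5b, Hdac3, Hdac4, Hdac5, Ep300 and Smarca4. Hdac5, a class IIa deacetylase, had the lowest log2 value among them without array 2 in 3 comparisons. These were -0.88 between FoxO-deficient and wild-type myeloid progenitors, -1.01 between FoxO-deficient myeloid progenitors and FoxO-deficient LSK cells, and -1.06 for the difference of the FoxO effects. Of its FoxO-deficient myeloid progenitor readings, 1 was not above background. The brightest of their probe sets were those of Dnmt1, with 2079 to 2989 over all arrays, Kdm2b, an H3 lysine 36 demethylase that recruits PRC1, with 1803 to 2405, and Dnmt3a, with 915 to 1669. The dimmest were those of Cbx7, with 3.18 to 12.5, Cbx8, with 7.38 to 24.0, and Hdac5, with 7.27 to 33.0. Cbx7 and Cbx8, both chromodomain subunits of PRC1, lay close to background on most arrays, which limits what can be read from them.

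Other genes of the same pathways were taken from a list of 131, of which 121 were measured. Between FoxO-deficient and wild-type myeloid progenitors, 1 of the 121 was called, against 1.84% of all genes. It was Brd2, a reader of acetylated histones, with means of 120 in FoxO-deficient and 281 in wild-type cells (log2 -1.22 ± 0.168, adjusted p = 0.0058). Without array 2, 6 were higher and 6 lower, or 9.92% against 8.88% of all genes, with Gadd45a, a factor in DNA repair and demethylation, and Brd2 among the lower and Chd7, a remodeller, among the higher. In LSK cells none of the 121 was called, with all arrays or without array 2, against 0.269% and 0.989% of all genes. Between cell types 11 were higher and 8 lower in wild-type myeloid progenitors (19 and 25 without array 2), or 15.7% against 21.4% of all genes (36.4% against 34.9%), led by Hdac9 (log2 -1.62), Gadd45a (1.39) and L3mbtl2, whose log2 change was 0.85 without array 2. In FoxO-deficient cells 7 were higher and 7 lower (26 and 27 without array 2), or 11.6% against 19.6% of all genes (43.8% against 38.4%), led by Chd7 (log2 1.79), Suv39h2 (1.19) and Chd2 (-1.15). Ogt, the O-GlcNAc transferase, was read by another probe set without array 2, which had the opposite sign in FoxO-deficient cells, so no direction is given for it. For the difference of the FoxO effects none of the 121 was called with all arrays, against 0.859% of all genes. Without array 2, 4 were called above 0 and 1 below it, with Kmt5b (1.33) and Kdm7a (-0.91) next to Ogt. The shares of all genes were then 1.77% above 0 and 1.74% below it, or 3.51% in all.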

How the data were processed

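RNA from 12 samples, 3 in each of 4 groups given by the sample titles, was measured on Affymetrix arrays after amplification with the NuGEN Ovation system, per the labels' protocols. The authors deposited linear intensities, 1 value a probe set and array. The software that summarised the probes and any scaling are not given in the sources used here. Mean intensity was 119 to 190 an array, and the number of arrays limits the precision. From these values, log2(intensity + 0.6) was taken and quantile normalized, with the 10th percentile over the whole table as offset. Probe sets above the 40th percentile of their array on at least 3 arrays were kept, and each gene was read by its brightest kept probe set (13732 genes). The log2 fold changes come from limma 3.58.1 in R 4.3.3, with 1 mean a group over 12 arrays and Benjamini-Hochberg adjustment over all genes. On simulated data the fit was checked for sign, order, bias and false calls, after a first criterion on the share of changes recovered had not been met and was replaced. A gene that was not called may therefore hold a change that these arrays do not detect. Of the probe sets, 34945 carry 1 gene symbol in the platform annotation, 932 several and 9160 none, and 64 are controls. No pair of arrays had equal values for more than 1.55% of probe sets, and each array was used as a separate sample.

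Genes were described in full where called with all arrays or without wild-type LSK array 2 (above 10 calls, the 10 of largest change), and otherwise by counts and ranges. Alternatives covered the offset, scaling, filter, choice of probe set, array weights, variance model, the groups fitted and each array left out. The 42 genes and all lists were chosen with earlier results of these data known.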

Additional observations from a re-analysis of the deposited data

Results flagged for a closer look

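For 3 genes the FoxO effect differed between the cell types or ran in opposite directions. Kdm6b is listed because the test of the difference itself passed, at -1.41 on the log2 scale (adjusted p = 0.0252), and its values are given with the demethylases. The Kdm6b difference missed the threshold with the mean of probe sets (adjusted p = 0.367), with no filter (0.0683) and without any 1 of arrays 4 to 12. Cbx2 is listed because every FoxO-deficient myeloid progenitor array lay above every wild-type one and every FoxO-deficient LSK array below every wild-type one. The difference was 1.69 (adjusted p = 0.126), so it did not pass the test, and 0.067 was the adjusted p without wild-type LSK array 2. Kdm5a is listed for the reverse order, lower on every FoxO-deficient myeloid progenitor array and higher on every FoxO-deficient LSK array, with a difference of -0.87 (adjusted p = 0.359). No outlier test was run gene by gene in groups of 3 arrays, and the departure of wild-type LSK array 2 is described above.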

How the results depend on the processing

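No paired analysis was possible because the array numbers run from 1 to 12 with none shared between groups. Of 941 alternative values for 43 results on single genes, 928 kept their direction, 792 also their side of the threshold, 60 lost a call and 76 gained 1. The 13 reversals all concern wild-type cells, myeloid progenitors minus LSK. Median scaling gave 0.0064 for Tet1, 0.019 for Ezh1, 0.080 for Chd4 and 0.10 for Arid1a. With each array left out, Tet1 ranged from -1.18 to 0.27, Ezh1 from -0.85 to 0.34, Pcgf5 from -0.47 to 1.18 and Hdac1 from -0.26 to 0.51, with the reversals of Tet1, Ezh1 and Hdac1 without array 1 or 3 and that of Pcgf5 without array 2. Pcgf5 was -0.57 with the mean of probe sets and -0.39 with array weights. The cause was not tested.

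Among the 42 genes, calls between FoxO-deficient and wild-type myeloid progenitors numbered 2 with offset 16, 0 with the mean of probe sets, 3 with array weights and 4 with only the groups compared, and 1 to 6 with each array left out. Calls between LSK groups numbered 0 to 1 with each array left out. For the difference of the FoxO effects they numbered 0 with no filter and with the mean of probe sets, 2 with array weights and 0 to 2 with each array left out. Between wild-type cell types they numbered 15 with array weights, 10 with trend and robust variance, 2 with only the groups compared and 4 to 20 with each array left out. Between FoxO-deficient cell types they numbered 15 with array weights, 13 with only the groups compared and 3 to 14 with each array left out. The highest count of each range came without wild-type LSK array 2. Counts of all genes under the same settings are given next, since they moved as well.

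Among all genes, calls between LSK groups numbered 129 with offset 16, 22 with median scaling, 16 with no filter, 93 with the 60th percentile filter, 23 with every probe set tested, 148 with array weights, 0 with only the groups compared and 9 to 133 with each array left out. Between myeloid progenitor groups they numbered 393 with offset 16, 407 with the 60th percentile filter, 186 with the mean of probe sets and 1230 with array weights. They numbered 644 with only the groups compared and 132 to 1194 with each array left out. For the difference of the FoxO effects they numbered 184, 72, 75, 185 and 440 with offset 16, median scaling, no filter, the 60th percentile filter and array weights. They numbered 102 with the mean of probe sets and 56 to 472 with each array left out. The split of 40 above 0 and 78 below it became 17 and 55 under median scaling. Between wild-type cell types they numbered 2942 with the main settings, 4396 with array weights and 3335 with trend and robust variance. They numbered 1100 with only the groups compared and 2023 to 4696 with each array left out. Between FoxO-deficient cell types they numbered 5444 with array weights, 4743 with only the groups compared and 1892 to 5160 with each array left out. Signals near the background limit restrict what can be read from Tet3, Cbx2, Cbx7, Cbx8, Hdac5 and Hdac7.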
